A study of Bos taurus with 13 samples.

Results

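In bovine mesenchymal stem cells, 69 of the 16595 genes in the deposited table were chosen as low after 3 days of heat, when their RNA was between 8.87% and 53.2% of the control. After 6 h of heat, and after recovery from it, their levels were near those of the controls, and time in culture raised them by less than 0.5 on the log2 scale or lowered them. These stromal cells attach to plastic and can form several connective tissue lineages, and here they were primary umbilical cord cultures used at passages 2 to 4. Polyadenylated RNA of 13 cultures was sequenced in 5 groups, all moved to their condition 1 day after seeding. ShortNT (6 h control, n = 3) was kept at 37 °C for 6 h and ShortHS (6 h heat, n = 3) at 40.5 °C for 6 h. LongNT (3-day control, n = 2) was kept at 37 °C for 3 days and LongHS (3-day heat, n = 3) at 40.5 °C for 3 days. ShortHS_Recovery (recovery, n = 2) had 6 h at 40.5 °C and then 66 h at 37 °C by the sample titles. All cultures grew in low glucose medium with serum, and the labels do not say whether replicates came from separate animals, so the spread between replicates may be technical.

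The members were chosen from the measured values. Values are normalised reads per gene, taken as log2(value + 1), and a difference is a difference of group means on that scale. A difference of -1 is a halving. Of the 16595 genes, 11182 had a mean value over the 13 libraries from 50 to under 20000. In 581 of these the 3-day heat difference, 3-day heat minus 3-day control, was at most -1. The 6 h heat difference, 6 h heat minus 6 h control, was under 0.3 in size in 215 of the 581. The recovery difference, recovery minus 3-day control, was under 0.5 in size in 180 of the 215. The culture difference, 3-day control minus 6 h control, was under 0.5 in 69 of the 180, which are the members. These 4 differences fix every difference between the 5 group means, so the members' differences between groups are given as a description and without a test.

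As background, sustained mild heat is known to set off more than the rapid induction of chaperones by heat shock factors: transcripts can also be lost slowly, over times far longer than the first response. The level of an mRNA at one time reflects both its synthesis and its decay, which sequencing of polyadenylated RNA does not separate. It gives the amount relative to the other transcripts of a culture, so in these bulk samples fewer cells of a type and less RNA per cell cannot be told apart. Genes are named here by Ensembl identifiers only, because the files do not pair them with names and none of them matched the reference table (0 of 16595). The markers of stromal and other cell types, the pathway lists and the roles of the members were therefore not analysed here, and 2 member identifiers are printed. Other members are given by their place in the order of the 3-day heat difference.

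Recovered depth ran from 14859428 to 39117065 reads per library. The third replicate of both 6 h groups and of the 3-day heat group stood apart from replicates 1 and 2, and the 3-day control and recovery groups have no replicate 3. Reads of replicates 1 and 2 of a group differed by 1.68 to 5.48 times the median chi-square of sampling noise, and pairs with replicate 3 by 8.14 to 14.9 times. Among the pairs of replicates 1 and 2 the 3-day control was the highest, at 5.48, and the 6 h control was next, at 2.75. This touches the choice of members, since the 3-day heat and culture differences set groups with a replicate 3 against one without. Values from replicates 1 and 2 alone are therefore given beside the pooled ones.

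Across the members the pattern was a late fall to about 45% of the control. The median 3-day heat difference was -1.19, with quartiles of -1.38 and -1.08, and the mean value in 3-day heat was a median of 45% of that in the 3-day control. Most members lay near the threshold. In 45 of the 69 the difference was between -1.3 and -1, in 12 between -1.6 and -1.3, in 6 between -2 and -1.6, and in 6 it was at most -2. The 5 members just inside the threshold had differences from -1.03 to -1.01. The 5 genes just outside, which met every other condition, had differences from -0.997 to -0.988, and 58 such genes lay between -1 and -0.8.

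The fall was seen in each 3-day heat library. The median member stood at 0.07, 0.04 and -0.13 relative to its own 6 h control mean in the 6 h control libraries, replicates 1 to 3, and at -0.04, -0.06 and -0.33 in the 6 h heat libraries. It stood at 0.06 and 0.16 in the 3-day control and at -0.18 and -0.22 in the recovery libraries. In the 3-day heat libraries it stood at -1.08, -1.06 and -1.35. The 3-day heat libraries were thus lowest in the median, and the recovery libraries lay slightly under both 3-day control libraries. In 55 of the 69 members all 3 heat libraries were below all 10 other libraries, against 10.2% of the 11182 genes in the abundance range. In all 69 they were below both 3-day control libraries (33.4% of genes in the range), and in 67 below both recovery libraries (34.7%). The rule used these contrasts, so the counts describe the members and support nothing.

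**Figure D1:**
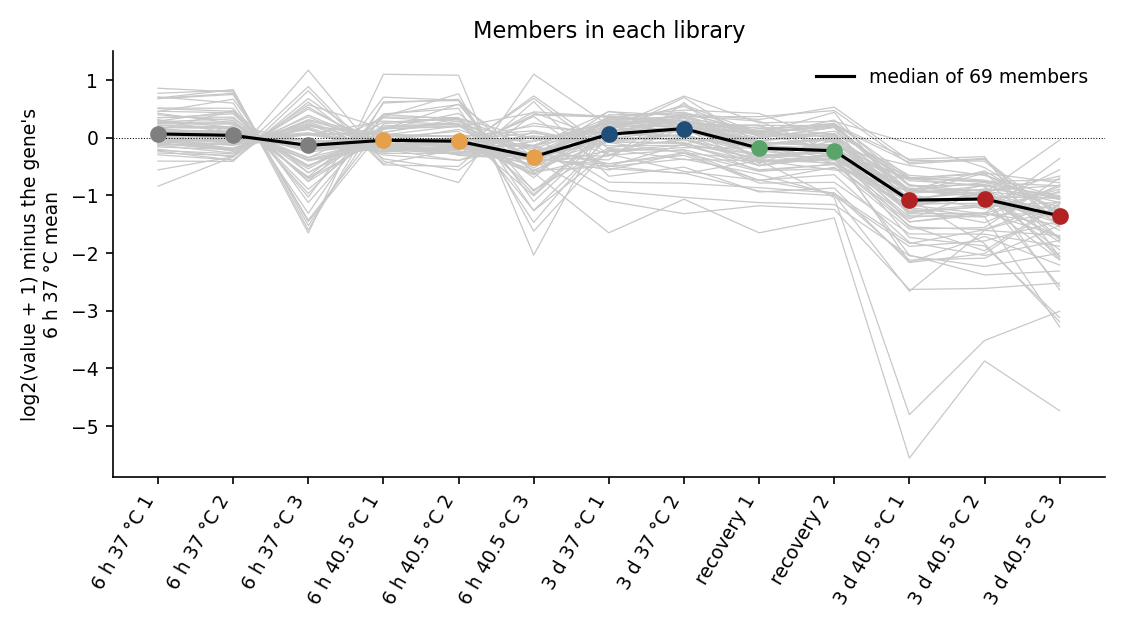
Difference of log2(value + 1) from each gene's 6 h control mean (y axis) in the 13 libraries (x axis), with a grey line for each of the 69 members and dots for their median in each library, coloured by group. The median is between -0.33 and 0.16 in the other 10 libraries, recovery included, and between -1.35 and -1.06 in the 3-day heat libraries.

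The member with the lowest 3-day heat difference was ENSBTAG00000016158. Its normalised values were 182, 182 and 61.9 in the 6 h control and 208, 200 and 83.3 in the 6 h heat libraries. They were 39.9 and 60.3 in the 3-day control and 39.9 and 47.9 in recovery. In the 3-day heat libraries they were 1.73, 7.77 and 3.82. The 3-day heat libraries were below all others without overlap, and the gene was also lower in both 3-day control libraries than in any 6 h control library. Its mean was 50.1 ± 14.4 (SD, n = 2) in the 3-day control and 4.44 ± 3.07 (SD, n = 3) in 3-day heat, a difference of -3.36 (SE 0.58 in the limma fit). The heat value rests on 2, 7 and 3 reads. Over the groups, 12 reads against 93 gave 8.77% of the control per normalised read, with an exact (Clopper-Pearson) 95% interval of 4.38% to 16.1% that covers counting error only. The culture difference was -1.36, and in replicates 1 and 2 it was -1.87.

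The most abundant member was ENSBTAG00000017869, which was the 18th in the order of the 3-day heat difference. Its values were 25821, 24985 and 21903 in the 6 h control and 20538, 21559 and 18538 in 6 h heat. They were 17662 and 20155 in the 3-day control, 14023 and 14148 in recovery, and 7612, 7588 and 6563 in 3-day heat. The 3-day heat libraries were again below the rest, at 7254 ± 598 (SD, n = 3) against 18909 ± 1763 (SD, n = 2), a difference of -1.38 (SE 0.10). Both recovery libraries were also below both 3-day control libraries, with a recovery difference of -0.42, near the limit of the rule. Counting error is small here, with 20790 and 36076 reads in the groups.

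**Figure D2:**
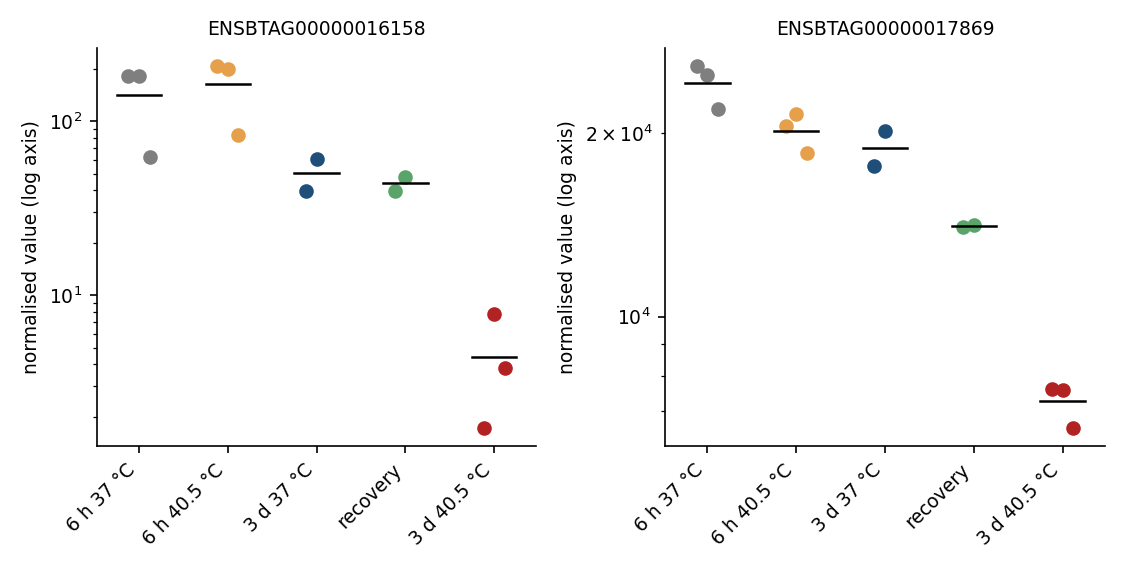
Normalised value (log axis) in each library (dots) and group mean (bars) of the member with the lowest 3-day heat difference (left) and the most abundant member (right), by group. In both genes the 3 heat libraries at 3 days lie below the other 10, at 1.73 to 7.77 on the left and at 6563 to 7612 on the right.

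Other members with large differences showed distinct levels between libraries. The member with the second lowest difference, -3.22, had 91.5, 93.2 and 115 in the 6 h control, 102, 101 and 90.1 in 6 h heat, 70.3 and 64.1 in the 3-day control, 75.3 and 47.9 in recovery, and 2.60, 7.77 and 11.5 in 3-day heat. Outside 3-day heat its values were alike in the 6 h groups and lower at 3 days, with a culture difference of -0.56. Its 3-day heat values rest on few reads, under 20 in each library, since 1 read was a value of 0.865, 1.11 and 1.27 there. The fifth in the order, at -2.32, had 478, 461 and 494 in the 6 h control, 449, 438 and 433 in 6 h heat, 529 and 482 in the 3-day control, 343 and 376 in recovery, and 116, 91 and 95.5 in 3-day heat. Replicate 3 of this gene was close to replicates 1 and 2 in each group, and the heat libraries fell to 19.9% of the 3-day control in the mean. Among abundant members, the 17th in the order had 16067 and 15759 in the 3-day control, 11994 and 12615 in recovery, and 5715, 5146 and 7129 in 3-day heat, with 6 h values from 10173 to 13144. Here the 3-day control libraries were the highest of all 13.

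The members were spread over the abundance range. Their mean values had a median of 602 and quartiles of 141 and 1740, against a median of 672 and quartiles of 275 and 1537 over the 11182 genes in the range. In 27 members the mean was over 1000, and in 12 it was under 100. The lowest number of reads in a 3-day heat library had a median of 184 over the members, and 8 members had under 20 reads in at least 1 such library.

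Time in culture at 37 °C moved the members little on balance, because the rule kept out genes that rose. The median culture difference was 0.11. It was from 0 to under 0.5 in 41 members, negative but above -0.5 in 21, and at most -0.5 in 7. Those 7 genes had a median 3-day heat difference of -1.19, the same as all members. Besides the member with the lowest 3-day heat difference, they include the 19th in the order. Its values were 144, 128 and 66.5 in the 6 h control, 49.4 and 42.3 in the 3-day control, and 16.4, 16.7 and 17.8 in 3-day heat. In replicates 1 and 2 alone, 10 members had a culture difference of at most -0.5, only 4 of the 7 among them, and the median over all members was -0.04. In limma over all libraries, 4 members passed as lower in the 3-day than in the 6 h control (13.6% of genes tested) and 1 as higher (11.7%). Within replicates 1 and 2, 20 passed as lower (21.7%) and 13 as higher (21.8%). With the replicate number as a block, 16 passed as lower (18.5%) and 6 as higher (18.3%). The rule used this contrast too. Leaving out single libraries moved the median culture difference to -0.04 (without replicate 3 of the 6 h control), 0.18 (without its replicate 1) and 0.06 (without replicate 2 of the 3-day control).

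The 111 genes that met every condition but the one on culture time differ from the members in where 3 days of heat left them. Their culture difference had a median of 1.13 and their 3-day heat difference a median of -1.41. Relative to the 6 h control, the 3-day heat level of these genes had a median of -0.31 and was at most -0.5 in 38 of 111. For the members the median was -1.20, and it was at most -0.5 in all 69 (from -4.72 to -0.64). The condition on culture time sets this difference, so it is a description. The nearest genes on either side of that condition had culture differences of 0.44 (inside) and 0.50 (outside).

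**Figure D3:**
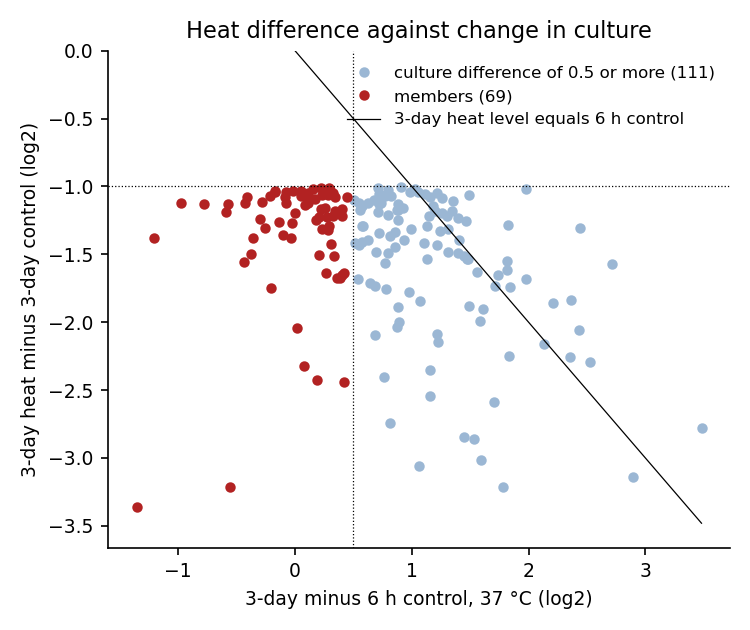
Difference between 3-day heat and 3-day control (y axis) against the difference between the 3-day and 6 h controls (x axis), both in log2, for the 69 members (red) and the 111 genes with a culture difference of 0.5 or more (blue). Dotted lines mark the thresholds, and genes on the solid line have the same level in 3-day heat as in the 6 h control. The members lie below the solid line by 0.64 or more.

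At 6 h of heat the members were held by the rule to differences under 0.3. Within that window the median was -0.09 and 51 of 69 were negative. In replicates 1 and 2 alone the median was -0.10, and without replicate 3 of the 6 h heat group it was -0.08. Without replicate 3 of the 6 h control it was -0.24, but replicate 3 of the 6 h heat group, low in many members, then stayed in. Leaving out replicates 1 and 2 of the 6 h heat group gave -0.15 and -0.16. The 6 h heat libraries were below all 6 h control libraries in 10 members, against 24.1% of genes in the range, and above them in 0, against 21.9%. In limma, 1 member passed an adjusted p of 0.05 at 6 h as lower and 0 as higher, against 16.7% and 14.8% of the 13684 genes tested. Within replicates 1 and 2 alone, 16 passed as lower (24.0% of genes tested) and 4 as higher (20.6%), and with the replicate number as a block 12 passed as lower (23.8%) and 0 as higher (20.8%). The rule used this contrast, and differences inside its window can still pass the test. From 6 h to 3 days at 40.5 °C the members' levels differed by a median of -1.13, from -4.97 to -0.48.

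After recovery the members were slightly lower than in the 3-day control. The recovery difference had a median of -0.24, with quartiles of -0.38 and -0.14, and was negative in 65 of 69. Both recovery libraries were below both 3-day control libraries in 44 members, against 26.5% of genes in the range, and above them in 2, against 25.6%. The 3-day heat and recovery differences share the 3-day control libraries, so a control that was high by chance lowers both. No member passed an adjusted p of 0.05 after recovery in limma, where 21 genes (0.153%) were lower, 88 (0.643%) were higher and 1513 had an unadjusted p under 0.05. On the recovered reads 3 members passed as lower in DESeq2, beside 0.841% of genes with an adjusted p, and 0 in edgeR, beside 0.161%. Within replicates 1 and 2, 25 members passed as lower (6.63% of genes tested) and 0 as higher (6.47%). Neither group has a replicate 3, so the recovery differences are the same there, and only the spread taken from the other groups changed. With the replicate number as a block, 9 passed as lower (2.77%) and 0 as higher (2.92%). With only the compared groups in the fit, 11 members passed as lower and 0 as higher, where 220 of the 13684 genes tested were lower. The rule used this contrast. The rule also left out 21 genes with a culture difference under 0.5 because their recovery difference was 0.5 or more in size. In all 21 it was negative, with a median of -0.71 beside a 3-day heat difference of -1.52.

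To read the same differences in libraries whose differences did not choose the genes, the differences of the rule were taken from the replicate 1 libraries of the 5 groups alone, and the genes were followed in the replicate 2 libraries. The abundance range was still that of the mean over all 13 libraries. This is 1 library per group, so no test is given. Same-numbered libraries of 3-day heat and 3-day control did not deviate together (r = 0.02 and 0.018). The 3-day heat deviations were taken from means that include replicate 3, so these values do not show whether the numbers paired libraries. Replicates 1 and 2 of the 6 h groups did deviate together (r = 0.514 and 0.499). The number is used here only to separate the libraries. The rule chose 64 genes, 34 of them members. Their 3-day heat difference had a median of -1.18 in replicate 1 and -1.18 in replicate 2, with quartiles of -1.50 and -1.02 and a highest value of -0.49. It was negative in 64 of 64 and at most -1 in 49 (76.6%). Over the genes in the abundance range the median in replicate 2 was 0.01 and 5.34% were at most -1. When replicate 2 chose (71 genes, 32 of them members), the median in replicate 1 was -1.13 and 50 of 71 (70.4%) were at most -1. The highest value was then -0.26. In the median, the late fall of the chosen genes thus had a like size in the libraries that did not choose them. The full set of conditions was met again by 28 of 64 and 28 of 71 genes.

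The slight deficit after recovery was also seen there. For the 64 genes the recovery difference in replicate 2 had a median of -0.30 and was negative in 50 (78.1%), against 51.4% of genes in the range. For the 71 genes it had a median of -0.21 in replicate 1 and was negative in 59 (83.1%), against 50.6%. Genes that met the same conditions in replicate 1 but had a 3-day heat difference under 0.3 in size (3096 genes) had a median recovery difference of -0.003 in replicate 2, with 50.6% negative. At 6 h of heat the 64 genes had a median of -0.11 in replicate 2 and were negative in 43 (67.2%), against 50.9% of genes in the range. The 71 genes had -0.15 in replicate 1 and were negative in 56 (78.9%), against 51.6%. The differences share no library with those that chose the genes, and each comes from 1 library per group.

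**Figure D4:**
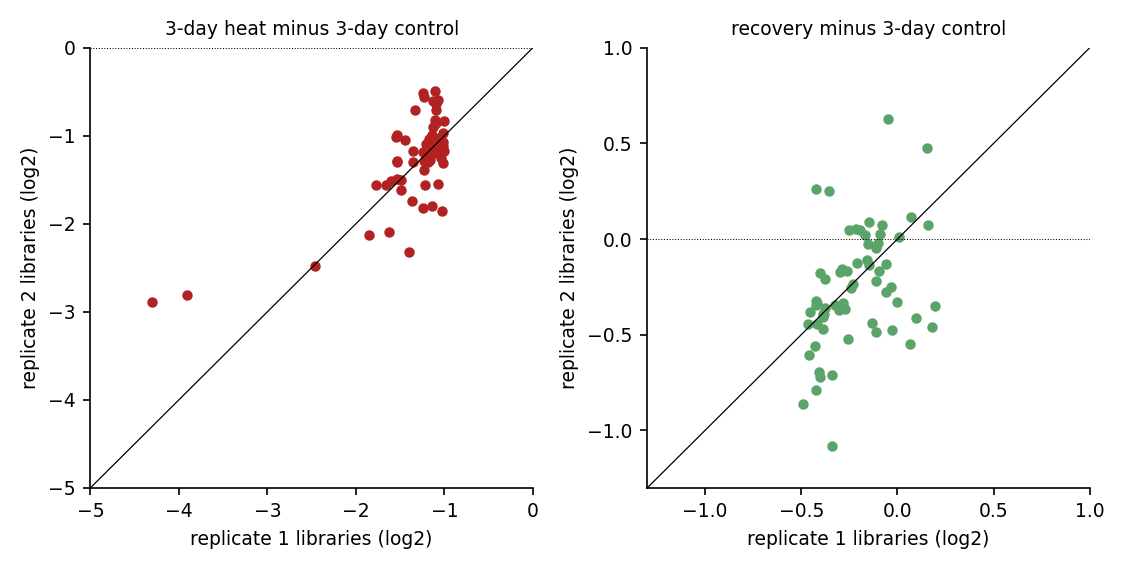
The 64 genes chosen in the replicate 1 libraries: log2 difference in replicate 1 (x axis) and in replicate 2 (y axis) for 3-day heat minus 3-day control (left) and recovery minus 3-day control (right), with the line of equal values. On the left all genes are below 0 in replicate 2 (highest -0.49), and on the right 50 of 64 are.

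Replicate 3 bore on which genes met the rule. In 19 of the 69 members (27.5%), replicate 3 was lower than the mean of replicates 1 and 2 by 0.5 or more in both 6 h groups, against 5.15% of genes in the range. It was higher by 0.5 or more in 8 members (11.6%), against 4.31%. The median within-group SD of the members was 0.30 on the log2 scale over all libraries and 0.10 in replicates 1 and 2, against 0.14 and 0.09 over the genes in the range. An example is the 49th in the order, one of the most abundant members. Its values were 7112, 7476 and 1651 in the 6 h control, 5259, 5604 and 1857 in 6 h heat, 4455 and 5612 in the 3-day control, and 3431, 3544 and 1061 in 3-day heat. Replicate 3 was low in each of the 3 groups that had one. The 3-day heat difference of this gene was -1.09 over all libraries and -0.52 in replicates 1 and 2.

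For the 19 members low in replicate 3, the median 3-day heat difference was -1.32 over all libraries and -1.08 in replicates 1 and 2, where 11 of 19 were still at most -1. Their median culture difference moved from 0.19 to -0.38. For the 50 other members the medians were -1.17 and -1.17, with 42 of 50 at most -1 in replicates 1 and 2, and the culture difference was 0.06 and 0.09. Over all 69 members, 53 were at most -1 in replicates 1 and 2, with a median of -1.15, and the highest was -0.49. The rule as a whole was met in replicates 1 and 2 by 46 of the 69 members. Without replicate 3 of the 6 h control alone, 53 genes met the rule, of which 37 were members.

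**Figure D5:**
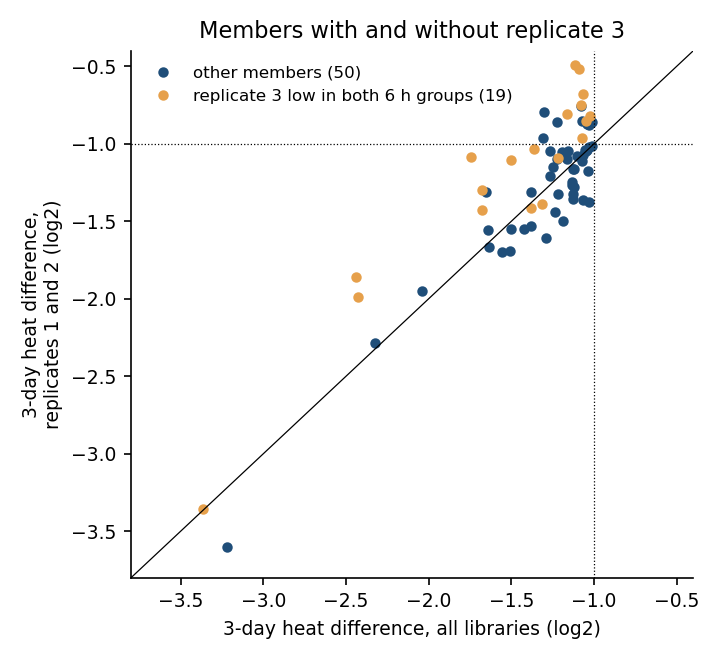
Difference between 3-day heat and 3-day control (log2) over all libraries (x axis) and in replicates 1 and 2 (y axis) for the 19 members with a low replicate 3 in both 6 h groups (orange) and the 50 others (blue), with the line of equal values and dotted lines at -1. Points above the horizontal dotted line are the 16 members that do not reach -1 in replicates 1 and 2.

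In limma across all 13 libraries, 60 of the 69 members passed an adjusted p of 0.05 as lower in 3-day heat, beside 20.3% of the 13684 genes tested. The rule used this contrast, so nothing is read from the count. Of the 9 members that did not pass, 8 were among the 19 with a low replicate 3. The third in the order is one of them. It had 142, 136 and 24.1 in the 6 h control, 99.8 and 109 in the 3-day control, and 37.2, 21.1 and 7.64 in 3-day heat, a difference of -2.44 with an SE of 0.99. With a term for replicate 3, chosen after seeing the data, 68 members passed (26.6% of genes tested were lower). In replicates 1 and 2 alone all 69 did (28.6%). Count tests on the recovered reads called 58 members lower with edgeR (19.5% of genes tested) and 59 with DESeq2 (21.0%). Leaving out a library of the 3-day control, the group with 2 libraries, lowered the number to 49 (without replicate 1) and 47 (without replicate 2), and the share of all tested genes called lower went to 12.3% and 13.8%.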

How the data were processed

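The deposited table holds 1 normalised signal value per gene and library, 16595 genes by 13 libraries. Per the submitters' processing notes, cutadapt, STAR, HTSeq and DESeq were used with the build ARS-UCD1.2, and versions and strand setting are not given in the sources used here. In each library 100% of the values were whole multiples, within 0.01 reads, of a single step, taken as 1 read, and division by it gave whole reads. Size factors recomputed from them with DESeq2 equalled the deposited ones.

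Values were taken as log2(value + 1), which understates changes of low genes, and group means were compared. Genes at 10 or more in at least 2 libraries (13684) were fitted with limma 3.58.1 in R 4.3.3, 5 group means in 1 model with empirical Bayes and a variance trend. P-values were two-sided and Benjamini-Hochberg adjusted over all tested genes, with a threshold of 0.05. Count tests on these reads used edgeR 4.0.16 (TMM, quasi-likelihood) and DESeq2 1.42.0. Alternatives were other pseudocounts, filters and scalings, the replicate number as a block, and left-out libraries. On simulated reads for 3-day heat (13684 genes, 100 changed by each size) the limma procedure recovered 97% of genes changed by 1 and 100% of those changed by 2 in log2, and 6.64% of its calls were false. The simulated reads had the same dispersion in all genes and no offset of replicate 3. These shares therefore check the procedure and are not error rates of the measured data.

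Same-numbered libraries of the 6 h groups deviated together over genes (r = 0.514, 0.499 and 0.721). Replicate 3 stood apart in both 6 h groups, which could by itself give such values. Differently numbered libraries were not compared, so the values do not show whether the numbers paired the other replicates. Same-numbered libraries did not deviate together in the other comparisons (r from -0.048 to 0.126). Deviations in 3-day heat and in the 6 h control were taken from means that include replicate 3, so these values do not settle pairing either.

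The members, lists and tests were chosen with earlier results of these data known. Printed by name were the member with the lowest 3-day heat difference and the most abundant one. Gene lists, cell type markers and promoter motifs were not analysed here.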

Additional observations from a re-analysis of the deposited data

How the results depend on the processing

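The rule was met by 69 genes, by 70 with a pseudocount of 0.5 (all 69 members among them) and by 70 with 5 (65 members). Upper quartile scaling gave 79 (67 members), quantile normalization 76 (61), replicates 1 and 2 alone 73 (46), and a term for replicate 3 gave 67 (51). Without the abundance range it was met by 124 genes. With single libraries left out it was met by 53 (without replicate 3 of the 6 h control) to 79 genes. The median 3-day heat difference of the 69 members stayed between -1.26 and -1.15 in the alternatives that recomputed it. The median in replicate 2 of genes chosen in replicate 1 was -1.16 with a pseudocount of 5.

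The number of genes called for 3 days of heat was 5531, and from 3339 (without replicate 1 of the 3-day control) to 6242 with single libraries left out. For 6 h of heat it was 4311, from 3228 to 4559. For the 3-day against the 6 h control it was 3467, from 872 (without replicate 1 of the 3-day control) to 3928, 1655 with only the compared groups in the fit, and 5950 in replicates 1 and 2. For recovery it was 109, from 1 (without replicate 1 of the recovery group) to 162, with 10 without replicate 2 of the 3-day control, 17 without replicate 2 of the recovery group, and 45 to 56 without replicate 1 or 2 of the other groups. It was 480 with only the compared groups, 1792 in replicates 1 and 2, 795 with a term for replicate 3 and 316 with DESeq2. With the replicate block it was 778. The cause of these moves was not tested. Where a single 3-day control or recovery library was left, it is assumed to vary like the other groups. Calls of the members that the block moved are given beside them. Depth limits the 8 members with under 20 reads in a 3-day heat library.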

Other observations

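Of the 581 genes in the abundance range with a 3-day heat difference of at most -1, 366 were left out because their 6 h heat difference was 0.3 or more in size. In 341 of them it was -0.3 or lower, that is, the mean was already lower at 6 h, and in 25 it was 0.3 or higher. After the conditions on recovery and culture time as well, the genes described above are 11.9% of the 581.

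The 66th of the members in the order of the 3-day heat difference ran opposite to most in replicate 3. Its normalised values were 32.5, 46.6 and 134 in the 6 h control, 44.4, 34.0 and 128 in 6 h heat, and 25.1, 30.0 and 57.3 in 3-day heat, against 68.5 and 76.9 in the 3-day control. Its culture difference was 0.30 over all libraries and 0.88 in replicates 1 and 2, where it would be counted as a gene that rose in culture. In replicates 1 and 2, 4 members had a culture difference of 0.5 or more.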
